A study of Arabidopsis thaliana with 6 samples.

Results

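The 10 genes described here code for transcription factors and partner proteins at which light, warmth and brassinosteroid signals meet in the control of plant growth: PIF4, PIF5, HFR1, BZR1, BES1, PRE1, PRE5, PRE6, IBH1 and HBI1. They were picked by locus identifier from a table of read counts for 32678 Arabidopsis thaliana genes. The counts come from polyadenylated leaf RNA of wild-type Col-0 and of the line Col-0 35S:RPS4-HS, written 35S:RPS4 below, with 3 libraries each. The 35S promoter is constitutive, so this line overexpresses the intracellular immune receptor RPS4 throughout the plant. All plants were raised for 3.5 weeks at 28 °C and then kept at 19 °C for 2 h before the leaves were frozen, so the wild type had the same temperature change as the transgenic line. The comparison asks which transcripts differ once the receptor is released at the lower temperature. No library from before the temperature change is analysed here, so a difference present already at 28 °C and one that arose at 19 °C cannot be told apart. A single overexpressing line was compared, and whether the replicates came from separate plants or from pools is not stated, so p-values measure only the spread between these libraries.

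PIF4 and PIF5 are basic helix-loop-helix (bHLH) factors that switch on cell elongation genes in shade, darkness and warmth, and HFR1 is a related protein that pairs with them and keeps them off DNA. BZR1 and BES1 are the transcription factors that carry the brassinosteroid signal into the nucleus, where BZR1 acts together with PIF4 on shared growth genes. Downstream of both lies a chain of 3 bHLH-type proteins: HBI1 activates elongation genes, IBH1 binds HBI1 and blocks it, and the small PRE proteins, which do not bind DNA themselves, bind IBH1 and so set HBI1 free. HBI1 is also known to hold down immune responses when overexpressed.

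Library totals ran from 28659022 to 31007551 gene counts, with 20736 to 21662 genes detected in each. RPS4 (AT5G45250) had 668 to 978 counts in Col-0 and 18033 to 24807 in 35S:RPS4, with a log2FC of 4.81 (SE 0.22, FDR 3.25e-05). A log2FC gives the level in 35S:RPS4 relative to Col-0 on the log2 scale, and the FDR is the Benjamini-Hochberg adjusted p of edgeR's quasi-likelihood test over the 18382 genes with enough reads. A gene was called raised or lowered at an FDR below 0.01 and a log2FC above 1 in size. Levels are read counts scaled to a common library size with TMM factors (CPM), unless said otherwise. Replicate 1 stood apart in both genotypes. In Col-0 it differed from replicates 2 and 3 by a chi-square of 32.9 and 25.5 per gene, beside 8.29 between those 2. In 35S:RPS4 the values were 33.7 and 39.5, beside 9.65. 35S:RPS4 replicate 1 was the transgenic library nearest to the Col-0 mean for 1277 of the 1439 called genes (88.7%), against 8574 of all tested genes (46.6%). The values of HBI1, PRE1, PRE6 and IBH1 are given with and without 35S:RPS4 replicate 1. For a gene where that library lies nearest to Col-0, leaving it out widens the difference, so a call kept without it is no check. The leaf label was checked with marker genes: the 3 mesophyll markers summed to 38100 to 40500 CPM in the wild type and to 38600 to 44200 CPM in 35S:RPS4, whereas the 3 root markers had 3 counts over all 6 libraries and 1 of them had none. None of the markers tested was called. The 3 guard cell markers did differ in range, at 37.8 to 38.2 CPM summed in Col-0 and 47.5 to 48.3 CPM in 35S:RPS4, and their part in the results below was not tested. In leaf RNA, fewer cells of a type and less RNA per cell cannot be told apart.

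Of the 10 genes, HBI1 and PRE1 fell in 35S:RPS4 and none rose. Both falls came from the chain of HBI1, IBH1 and PRE proteins, and the 2 remaining members of this chain with enough reads, PRE6 and IBH1, stood at 59.2% and 57.3% of their Col-0 means. PIF4, BZR1, BES1 and PIF5 stood at 79.3%, 92.6%, 89.5% and 124% of Col-0, and HFR1, with few reads, at 41.0%. None of these 5 was called, and the difference between them and the chain was not tested. The 2 lowered genes make 22.2% of the 9 tested, beside 1.37% of all genes tested that were called lower and 6.46% that were called higher. The median log2FC of the 9 tested was -0.75 beside 0.01 over all genes, and 8 of the 9 values were below zero beside 49.0% of all genes. The 3 Col-0 libraries all lay above the 3 of 35S:RPS4 for 5 genes (PIF4, PRE1, PRE6, IBH1 and HBI1), or 55.6% of those tested, beside 16.3% of all genes. No gene of the 10 had its 35S:RPS4 libraries all above Col-0, as 17.9% of all genes did. PRE5 had too few reads to be tested, and HFR1 passed the filter on low counts only through its Col-0 libraries. The 10 genes were also chosen with earlier results of these data known. The counts above therefore describe these genes and support nothing further.

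**Figure D1:**
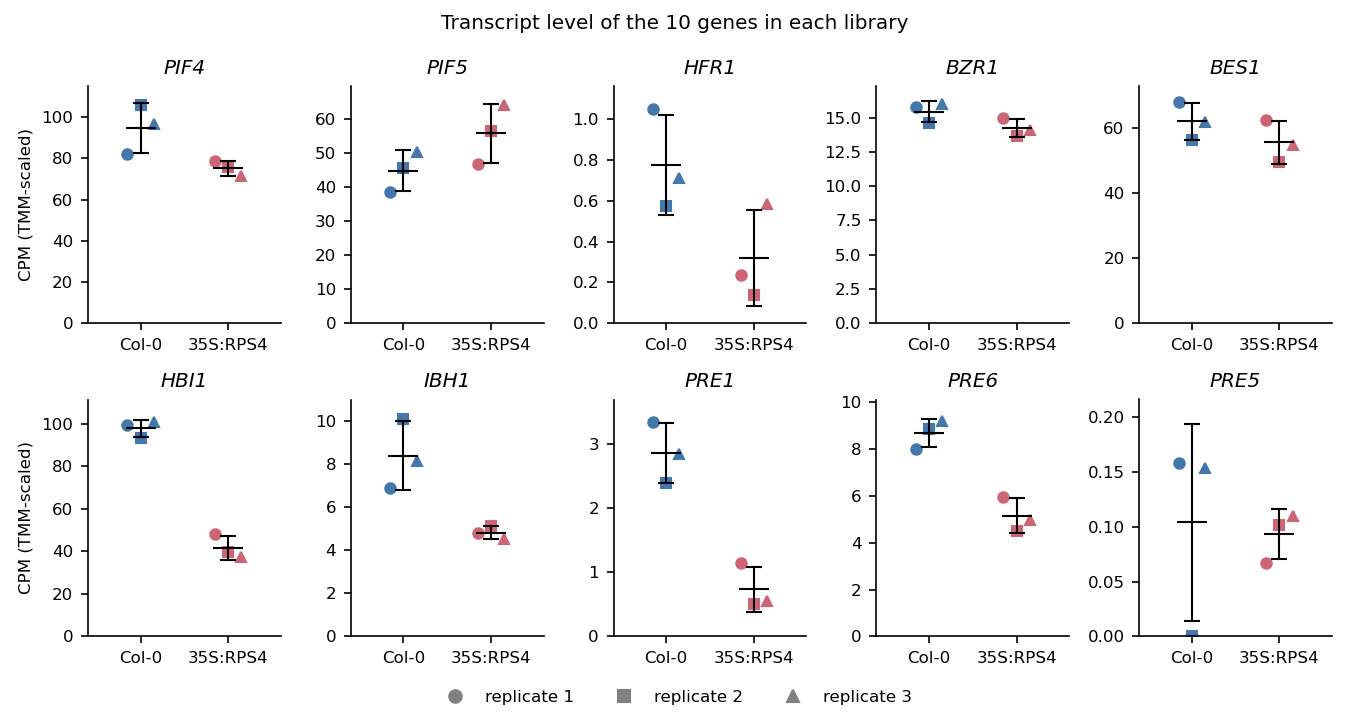
Transcript level of each of the 10 genes in every library, in TMM-scaled CPM on a linear axis that starts at 0, with Col-0 in blue, 35S:RPS4 in red and the replicate number as the marker shape. Black bars give the mean and SD of 3 libraries. The groups stand clear of each other for HBI1, PRE1, PRE6 and IBH1, nearly touch for PIF4, and overlap for PIF5, HFR1, BZR1, BES1 and PRE5.

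HBI1 (AT2G18300, TAIR10.1 chromosome 2, 7952404 to 7954785, minus strand) was the most abundant of the 10 transcripts per exon length in Col-0 and its level was 99.3, 93.5 and 101 CPM in replicates 1 to 3. In 35S:RPS4 it stood at 48.2, 39.7 and 37.2 CPM. Replicate 1 was the highest of the transgenic libraries, and all 3 lay far below the lowest Col-0 library relative to the spread within groups. The means were 97.8 ± 3.81 and 41.7 ± 5.77 CPM (SD, n = 3), so HBI1 fell to 42.7% of Col-0, with a log2FC of -1.23 (SE 0.11, 95% interval -1.48 to -0.98, FDR 0.000227). It was called lower in every alternative analysis and with any 1 library left out, at a log2FC of -1.36 to -1.15. Without 35S:RPS4 replicate 1 the log2FC was -1.36 (FDR 1.89e-05).

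IBH1 (AT2G43060, chromosome 2, 17909007 to 17910210, plus strand), the inhibitor that binds HBI1, was also lower in 35S:RPS4 but was not called. Its fitted value was nearer to zero than that of HBI1, but the 95% intervals of the 2 genes overlap. The level of IBH1 was 6.91, 10.1 and 8.15 CPM in Col-0 and 4.8, 5.12 and 4.53 CPM in 35S:RPS4. The lowest Col-0 library was still above the highest transgenic one, and the Col-0 libraries varied more among themselves than the transgenic ones, at 8.40 ± 1.63 against 4.82 ± 0.295 CPM. The log2FC of -0.80 (SE 0.16, interval -1.17 to -0.43) missed both thresholds, at an FDR of 0.0119. Without 35S:RPS4 replicate 1 the log2FC was -0.81 (FDR 0.0226). With the replicate number as a block the FDR was 0.00306, and the fold stayed under the threshold.

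PRE1 (AT5G39860, chromosome 5, 15957368 to 15958559, plus strand), a small helix-loop-helix protein that sequesters IBH1, had the largest fitted fall of the 10. It was read 105, 71 and 92 times in Col-0 and 34, 15 and 15 times in 35S:RPS4, which made 3.33, 2.39 and 2.84 CPM against 1.14, 0.509 and 0.548 CPM. All 3 transgenic libraries were below all 3 of Col-0, and 35S:RPS4 replicate 1 held more reads than the other 2. PRE1 fell to 25.7% of Col-0, from 2.85 ± 0.467 to 0.733 ± 0.354 CPM, with a log2FC of -1.95 (SE 0.33, interval -2.72 to -1.18, FDR 0.00548). This call rests on the full set of libraries. Leaving out Col-0 replicate 1, 2 or 3 gave log2FC values of -1.83, -2.05 and -1.96 at FDRs of 0.016, 0.0166 and 0.0258, and leaving out 35S:RPS4 replicate 2 or 3 gave -1.74 and -1.79 at 0.0253 and 0.0272, none of which is a call. Without 35S:RPS4 replicate 1 the log2FC was -2.43 (FDR 0.000557), and with the replicate block it was -1.99 (FDR 0.000684).

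PRE6 (AT1G26945, listed as KDR in the reference; chromosome 1, 9351160 to 9352833, plus strand), which is known to bind HFR1, was the most abundant of the 3 PRE transcripts per exon length. It stood at 8.02, 8.87 and 9.2 CPM in Col-0 and at 5.97, 4.51 and 4.97 CPM in 35S:RPS4. The groups did not overlap, at 8.70 ± 0.611 and 5.15 ± 0.746 CPM. The log2FC of -0.75 (SE 0.14, interval -1.07 to -0.44) had an FDR of 0.00749 but was under the fold threshold. Together with PRE1 and HBI1 it made 3 of the 10 genes with lower levels at an FDR below 0.01 whatever the fold, beside 2.59% of all genes tested. That FDR was above 0.01 without any 1 of the libraries except 35S:RPS4 replicate 1, at 0.0125 to 0.0397, and it was 0.0027 without replicate 1. PRE5 (AT3G28857, chromosome 3, 10855623 to 10856787, minus strand) was hardly expressed, with 5, 0 and 5 counts in Col-0 and 2, 3 and 3 in 35S:RPS4. Its ratio of 35S:RPS4 to Col-0 was 0.864, with a 95% interval of 0.296 to 2.43 for counting error alone, so a change of that size in either direction was not detectable at this depth.

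The DNA before these genes is shown because HBI1, PRE1 and PRE6 had the smallest FDRs of the 10, and BZR1 for contrast as the gene with most motif matches and a level near that of Col-0. Each sequence is the 300 bases before the annotated gene start, 5′ to 3′ on the gene's strand, from the RefSeq copy of TAIR10.1: chr2:7954786-7955085 (minus) for HBI1, chr5:15957068-15957367 (plus) for PRE1, chr1:9350860-9351159 (plus) for PRE6 and chr1:28185204-28185503 (plus) for BZR1. Capitals mark matches on either strand to the G-box CACGTG and the E-box CACATG, both bound by PIF factors. They also mark the brassinosteroid response elements CGTGTG and CGTGCG, bound by BZR1 and BES1, and the letters CGCG. CGCG is a form of CGyG (y for C or T), which the study gives as the core motif bound by CAMTA factors. The other form, CGTG, was not searched for by itself, so the marks do not cover the whole CAMTA core.
HBI1: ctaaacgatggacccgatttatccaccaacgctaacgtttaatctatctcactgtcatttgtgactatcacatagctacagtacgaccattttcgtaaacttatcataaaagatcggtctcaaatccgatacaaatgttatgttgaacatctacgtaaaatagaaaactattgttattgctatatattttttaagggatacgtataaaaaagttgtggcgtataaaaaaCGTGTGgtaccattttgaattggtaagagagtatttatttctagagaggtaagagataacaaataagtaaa
PRE1: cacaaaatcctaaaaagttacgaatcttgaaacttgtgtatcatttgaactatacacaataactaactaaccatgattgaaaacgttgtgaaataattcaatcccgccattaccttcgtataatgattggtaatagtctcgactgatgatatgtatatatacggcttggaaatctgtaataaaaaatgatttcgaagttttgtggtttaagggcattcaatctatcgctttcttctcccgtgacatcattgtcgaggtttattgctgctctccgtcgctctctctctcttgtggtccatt
PRE6: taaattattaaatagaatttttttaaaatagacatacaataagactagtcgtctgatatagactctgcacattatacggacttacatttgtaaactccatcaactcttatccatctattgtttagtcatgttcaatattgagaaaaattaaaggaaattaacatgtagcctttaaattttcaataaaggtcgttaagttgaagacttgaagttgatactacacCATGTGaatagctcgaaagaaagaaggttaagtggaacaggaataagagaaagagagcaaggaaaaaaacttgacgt
BZR1: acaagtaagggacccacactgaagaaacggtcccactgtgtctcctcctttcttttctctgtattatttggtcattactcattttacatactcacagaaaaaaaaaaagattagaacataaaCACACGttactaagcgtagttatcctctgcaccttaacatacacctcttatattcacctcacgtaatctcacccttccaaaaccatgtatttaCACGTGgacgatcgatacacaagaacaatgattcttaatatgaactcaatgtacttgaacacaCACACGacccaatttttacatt

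HBI1 held 1 match, to CGTGTG, beginning 71 bases before its start, and PRE6 held 1 to CACATG, read on the other strand as CATGTG, at 77 bases. BZR1 held a G-box at 85 bases and CGTGTG, as CACACG, at 178 and 22 bases. The remaining 2 windows with a match were those of PIF5, with a G-box at 165 bases, and BES1, with CACATG at 242 bases. The windows of PRE1, IBH1, PIF4, HFR1 and PRE5 held none of the 5 motifs, so 5 of the 10 genes had a match, beside 33.2% of the 18140 windows of tested genes. Singly, the shares over all windows were 8.0% for CACGTG, 12.7% for CACATG, 6.21% for CGTGTG, 1.91% for CGTGCG and 12.7% for CGCG, of which the last 2 occurred before none of the 10. The share of CGCG leaves out CGTG, the other form of the CAMTA core, so it does not describe that core as a whole. CACGTG followed by TG also contains CGTGTG, so these motifs can overlap. A match describes the letters in this window only, and the lack of one says nothing about the factor.

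PIF4 (AT2G43010, chromosome 2, 17886101 to 17889087, plus strand), the bHLH factor best known for growth in warmth, stood at 82.1, 106 and 96.6 CPM in Col-0 and at 78.8, 75.7 and 71.5 CPM in 35S:RPS4. The groups did not overlap, but Col-0 replicate 1 and 35S:RPS4 replicate 1 lay close together. The log2FC was -0.33 (SE 0.10, interval -0.58 to -0.09, FDR 0.069), from 95 ± 12.2 to 75.3 ± 3.64 CPM, and PIF4 was not called.

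PIF5 (AT3G59060, chromosome 3, 21827905 to 21830837, minus strand; PIL6 in the reference), its close relative in shade responses, was the only one of the 9 tested genes with a fitted value above zero. It had 38.4, 45.7 and 50.4 CPM in Col-0 and 46.7, 56.5 and 64.1 CPM in 35S:RPS4, so the groups overlapped. The log2FC was 0.31 (SE 0.14, interval -0.02 to 0.65, FDR 0.206). In each pair of libraries with the same replicate number the transgenic one was higher, and the replicate block lowered the FDR to 0.00695 at the same log2FC, which is under the fold threshold.

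HFR1 (AT1G02340, chromosome 1, 465616 to 467880, minus strand), which keeps PIF factors off DNA, had few reads. It had 33, 17 and 23 counts in Col-0 and 7, 4 and 16 in 35S:RPS4, or 1.05, 0.573 and 0.71 CPM against 0.235, 0.136 and 0.585 CPM. The groups overlapped through 35S:RPS4 replicate 3. The log2FC of -1.30 had a wide interval (SE 0.52, -2.51 to -0.09) and an FDR of 0.15, and it ran from -2.04 to -0.93 as single libraries were left out.

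BZR1 (AT1G75080, chromosome 1, 28185504 to 28188075, plus strand) and BES1 (AT1G19350, chromosome 1, 6688463 to 6691216, plus strand), the paired brassinosteroid response factors, lay close to Col-0. BZR1 had 15.8, 14.6 and 16.0 CPM in Col-0 and 15, 13.7 and 14.1 CPM in 35S:RPS4. BES1 had 68.0, 56.4 and 62.1 CPM in Col-0 and 62.7, 49.5 and 54.8 CPM in 35S:RPS4. In both genes the groups overlapped. The log2FC was -0.11 for BZR1 (SE 0.08, interval -0.31 to 0.09, FDR 0.471) and -0.16 for BES1 (SE 0.11, interval -0.42 to 0.10, FDR 0.415). These intervals leave no room for a transcript change of the size seen for HBI1. Both proteins are regulated chiefly by phosphorylation, which RNA counts do not measure.

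**Figure D2:**
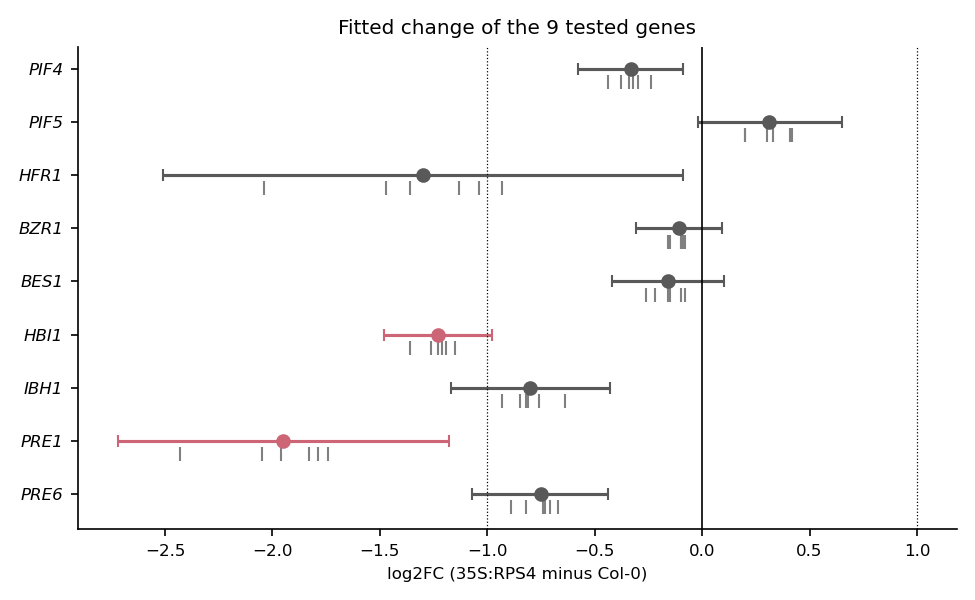
Fitted log2FC of the 9 tested genes, 35S:RPS4 minus Col-0, with bars for the 95% interval and grey ticks below each point for the 6 fits with 1 library left out. Dotted lines mark a log2FC of 1 in either direction and the genes called lower, HBI1 and PRE1, are in red. The ticks of HBI1 span -1.36 to -1.15, and those of HFR1 span -2.04 to -0.93.

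To compare levels between genes, CPM was divided by annotated exon length in kilobases. In Col-0 the order was HBI1 (49.6 CPM per kb), PIF4 (36.6), BES1 (25.5), PIF5 (17.5), PRE6 (8.24), BZR1 (8.03), IBH1 (6.98), PRE1 (3.33), HFR1 (0.51) and PRE5 (0.114). The 3 libraries of neighbours in this order overlapped in range for PRE6 with BZR1 and for BZR1 with IBH1, and for no other pair. HBI1 thus led the order in Col-0 at 49.6 ± 1.93 CPM per kb (SD, n = 3), whereas in 35S:RPS4, at 21.2 ± 2.93 CPM per kb, it came close to PIF5 (21.8 ± 3.42) and BES1 (22.8 ± 2.74) and below PIF4 (29 ± 1.40). On this scale IBH1 went from 6.98 ± 1.36 to 4 ± 0.245 CPM per kb and PRE1 from 3.33 ± 0.545 to 0.856 ± 0.413.

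Ratios of 2 of these genes within a library do not depend on how libraries are scaled, and 5 were computed from the counts, each for a pair of antagonists or close relatives. With 3 libraries against 3, the exact permutation test used (two-sided, libraries unpaired) cannot give a p below 0.1, so its p-values cannot pass 0.05 and are given beside each ratio's values only. PIF4 was read 2.14, 2.32 and 1.92 times as often as PIF5 in Col-0 and 1.69, 1.34 and 1.12 times as often in 35S:RPS4. These groups did not overlap, and the mean log2 ratio was lower by 0.64 units (exact permutation p = 0.1, adjusted p = 0.25 over the 5 ratios). It combines the fitted values of PIF4 and PIF5, which had opposite signs and were not called. The ratio was lower in 35S:RPS4 in all 3 pairs of libraries with the same replicate number, which follows from the lack of overlap and adds nothing to it.

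The ratio of PRE1 to PRE6 was 0.415, 0.27 and 0.309 in Col-0 and 0.191, 0.113 and 0.11 in 35S:RPS4, again without overlap (exact permutation p = 0.1, adjusted p = 0.25). The ratio was lower in 35S:RPS4 in all 3 pairs here too, which again follows from the lack of overlap. Set against IBH1, PRE1 was at 0.482, 0.236 and 0.348 in Col-0 and 0.238, 0.0993 and 0.121 in 35S:RPS4, where 35S:RPS4 replicate 1 overlapped Col-0 replicate 2 (exact permutation p = 0.2, adjusted p = 0.25), although the ratio was lower in 35S:RPS4 in all 3 same-numbered pairs. The ratio of PRE6 to IBH1 was 1.16, 0.874 and 1.13 against 1.24, 0.881 and 1.10, a mean log2 difference of 0.02 with full overlap (exact permutation p = 0.9, adjusted p = 0.9). HBI1 was read 14.4, 9.21 and 12.3 times as often as its inhibitor in Col-0 and 10.1, 7.75 and 8.21 times in 35S:RPS4, which overlapped between the groups (exact permutation p = 0.2, adjusted p = 0.25) and was likewise lower in all 3 pairs.

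**Figure D3:**
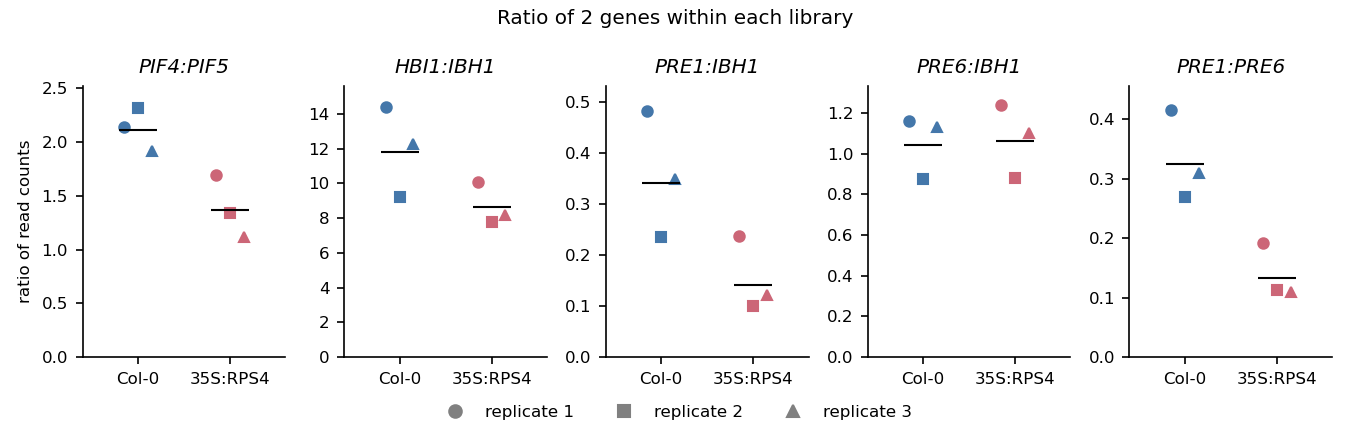
Ratio of the read counts of 2 genes within each library, on linear axes from 0, with Col-0 in blue, 35S:RPS4 in red, marker shape for the replicate number and a black line for the geometric mean of 3 libraries. The groups are apart for PIF4 to PIF5 and PRE1 to PRE6, and they overlap for the 3 ratios to IBH1.

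Genes around these factors were read from 10 lists of 96 genes, of which 81 were tested. Over all lists 5 genes were raised (6.17% of those tested, beside 6.46% of all genes) and 5 lowered (6.17%, beside 1.37%). The median log2FC was -0.13. The lists were chosen with earlier results of these data known, so these shares are a description only. With the replicate block 10 were lowered, the same 10 as with DESeq2, adding PAR1, IAA29, BEE3, IBL1 and BR6OX2 to the 5. Without Col-0 replicate 1, 2 or 3 the lowered count was 3, 1 and 0, and without 35S:RPS4 replicate 1 or 2 it was 10 and 1. Each of the 10 genes called in all 6 libraries was also called without 35S:RPS4 replicate 1. That library lay nearest to Col-0 for most called genes of the whole table, so this is no check on the calls. The raised count was 3, 3 and 2 without Col-0 replicate 1, 2 or 3, and 2 and 3 without 35S:RPS4 replicate 2 or 3.

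The lists nearest to the PIF factors held no call. Among 4 tested PIF relatives all values were below zero (median -0.51), and PIF1, a repressor of seed germination in darkness, went from 19.9 ± 0.851 to 14.2 ± 0.576 CPM (log2FC -0.49, SE 0.08, FDR 0.00487). The 13 light and temperature regulators of PIF factors, all tested, had a median of -0.04 and ran from -0.45 for the blue light receptor gene CRY1 (SE 0.09, FDR 0.0107) to 0.12. The thermosensing photoreceptor gene PHYB had a log2FC of -0.21 (FDR 0.143) and ELF3, which restrains PIF4 in the evening, -0.13 (FDR 0.373). PHYB and ELF3 are named outside the naming rule for their known link to PIF4. Of 15 genes known to be induced in shade or warmth through PIF factors 10 were tested and none was called, with a median of -0.27. The smallest FDR among them was that of PAR1, a shade-induced inhibitor of elongation, at 3.55, 2.53 and 3.52 CPM in Col-0 and 1.88, 0.543 and 0.658 CPM in 35S:RPS4 (log2FC -1.63, SE 0.44, FDR 0.0469), which was called with the replicate block (-1.73, FDR 0.0062) and without 35S:RPS4 replicate 1 (-2.42, FDR 0.000622). Its groups did not overlap.

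The brassinosteroid lists held most of the calls, in both directions. Of 14 tested genes from the receptor to the kinase BIN2, 2 were raised and 1 lowered. BRL3, a receptor related to BRI1, was at 15.8, 14 and 13.7 CPM in Col-0 and 34.8, 50.3 and 42.5 CPM in 35S:RPS4 (log2FC 1.55, SE 0.14, FDR 0.00031). BAK1, a co-receptor of BRI1 and of immune receptors, rose from 47.0 ± 2.13 to 108 ± 22.6 CPM (log2FC 1.20, SE 0.15, FDR 0.00168), and the call ended without Col-0 replicate 3 (FDR 0.0122) or 35S:RPS4 replicate 2 (FDR 0.0101). BKI1, which inhibits BRI1, fell from 8.26 ± 1.54 to 3.88 ± 0.745 CPM (log2FC -1.09, SE 0.19, FDR 0.00705), but the FDR was 0.0264 to 0.0329 without Col-0 replicate 2 or 3 or 35S:RPS4 replicate 2 or 3, and 0.0101 with limma voom. The receptor gene BRI1 itself (0.05, FDR 0.806) and the kinase gene BIN2 (0.21, FDR 0.2), named here for their place in the pathway, were not called.

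Whereas BZR1 and BES1 lay near Col-0, their 4 homologues did not. BEH1 fell from 9.13, 11.2 and 12.4 CPM to 4.53, 3.77 and 5.41 CPM (log2FC -1.26, SE 0.17, FDR 0.00212). BEH3 rose from 3.55, 3.17 and 3.12 CPM to 5.60, 8.79 and 6.03 CPM (log2FC 1.05, SE 0.19, FDR 0.00845). Neither pair of groups overlapped, but the BEH1 call ended without Col-0 replicate 2 or 3 or 35S:RPS4 replicate 2 (FDR 0.0101 to 0.0128), and that of BEH3 without any 1 library except 35S:RPS4 replicate 1 (FDR 0.0167 to 0.044). BEH3 was also not called with upper-quartile factors (0.87, FDR 0.0142), library size alone (0.89, FDR 0.0157) or limma voom (1.03, FDR 0.0145). BEH2 (log2FC 0.81, FDR 0.000221) and BEH4 (0.89, FDR 0.00245), named after their values were seen, were higher under the fold threshold, so that 3 of the 4 homologues were higher at an FDR below 0.01 whatever the fold, beside 7.53% of all genes tested.

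Among 12 tested genes of brassinosteroid synthesis and inactivation, 2 were raised and 1 lowered, all 3 of them inactivation genes. UGT73C5, which glucosylates brassinosteroids and also fungal toxins, rose from 2.33 ± 0.453 to 28.1 ± 3.72 CPM (log2FC 3.59, SE 0.17, FDR 2.44e-05). It lies in a group of near-identical genes, so its reads may be shared with or lost to paralogues. The cytochrome P450 gene SOB7 rose from 0.978 ± 0.197 to 2.60 ± 0.606 CPM (log2FC 1.40, SE 0.26, FDR 0.00846), and its relative BAS1 fell from 6.95 ± 0.985 to 2.87 ± 0.402 CPM (log2FC -1.27, SE 0.17, FDR 0.00165). The SOB7 call ended without any 1 library except 35S:RPS4 replicate 1 (FDR 0.02 to 0.038), with upper-quartile factors (1.22, FDR 0.0109), with library size alone (1.24, FDR 0.0125) and with limma voom (1.38, FDR 0.0132), and that of BAS1 without Col-0 replicate 3 (FDR 0.0103). On the synthesis side BR6OX2, which makes brassinolide and is named after its values were seen, was at 13.0, 11.5 and 11.4 CPM in Col-0 and 4.93, 3.12 and 1.5 CPM in 35S:RPS4 (log2FC -1.90, SE 0.36, FDR 0.0111), without overlap. It was called lower with the replicate block (-1.98, FDR 0.00503), upper-quartile factors (FDR 0.0072), library size alone (FDR 0.00754), DESeq2 (FDR 6.32e-07) and limma voom (FDR 0.00473), and without 35S:RPS4 replicate 1 (FDR 0.000995) or 3 (FDR 0.00477).

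The relatives of the HBI1 chain held no call, but most values lay below zero. All 5 IBH1 relatives had values below zero (median -0.57), among them AIF2, an inhibitor of the same type, at 19.4 ± 1.11 and 11.8 ± 1.32 CPM (log2FC -0.72, SE 0.11, FDR 0.00283). The lowest fitted value of the 5 was that of IBL1, named after its values were seen, at 1.77 ± 0.401 and 0.644 ± 0.238 CPM (log2FC -1.45, SE 0.33, FDR 0.0198). IBL1 was called lower with DESeq2 (FDR 0.00186) and with the replicate block (FDR 0.00423). Of 9 tested bHLH relatives of HBI1, 7 had values below zero (median -0.21). The smallest FDR was that of BEE2, a brassinosteroid-induced growth factor, which went from 47.4, 46.2 and 47.6 CPM to 30.2, 21.4 and 20.8 CPM without overlap (log2FC -0.96, SE 0.14, FDR 0.00317), just under the fold threshold. It passed with upper-quartile factors (-1.14), with library size alone (-1.13) and without 35S:RPS4 replicate 1 (-1.17, FDR 3.55e-05). BEE3, named after its values were seen, had 13.4, 4.42 and 8.49 CPM in Col-0 and 3.69, 0.882 and 1.39 CPM in 35S:RPS4 (log2FC -2.14, SE 0.59, FDR 0.0511). The values of both genotypes were highest in replicate 1 and lowest in replicate 2, and with the replicate block the log2FC was -2.21 (FDR 3.95e-05). Of the other PRE genes, BNQ2 (also PRE2) had a log2FC of -0.01 (SE 0.38, FDR 0.99) from 10 to 22 counts per library, and PRE3 and BNQ3 (PRE4) had no read in any library, which allows up to 3 counts per group.

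Among 9 tested gibberellin and auxin partners of these factors, 2 were lowered and none raised. GAI, a DELLA repressor that binds PIF and BZR1 proteins and is itself destroyed on gibberellin signals, fell from 50.4, 46.3 and 47.2 CPM to 27.6, 19.1 and 18.3 CPM (log2FC -1.14, SE 0.16, FDR 0.00227). The gibberellin receptor gene GID1C fell from 18.1, 15.9 and 18.8 CPM to 10.6, 7.50 and 5.89 CPM (log2FC -1.14, SE 0.20, FDR 0.0078). Neither gene's groups overlapped, and in both 35S:RPS4 replicate 1 was nearest to Col-0. The GAI call ended without Col-0 replicate 1, 2 or 3 or 35S:RPS4 replicate 2 (FDR 0.0103 to 0.0141), and that of GID1C without any 1 library except 35S:RPS4 replicate 1 (FDR 0.0153 to 0.0436).

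**Figure D4:**
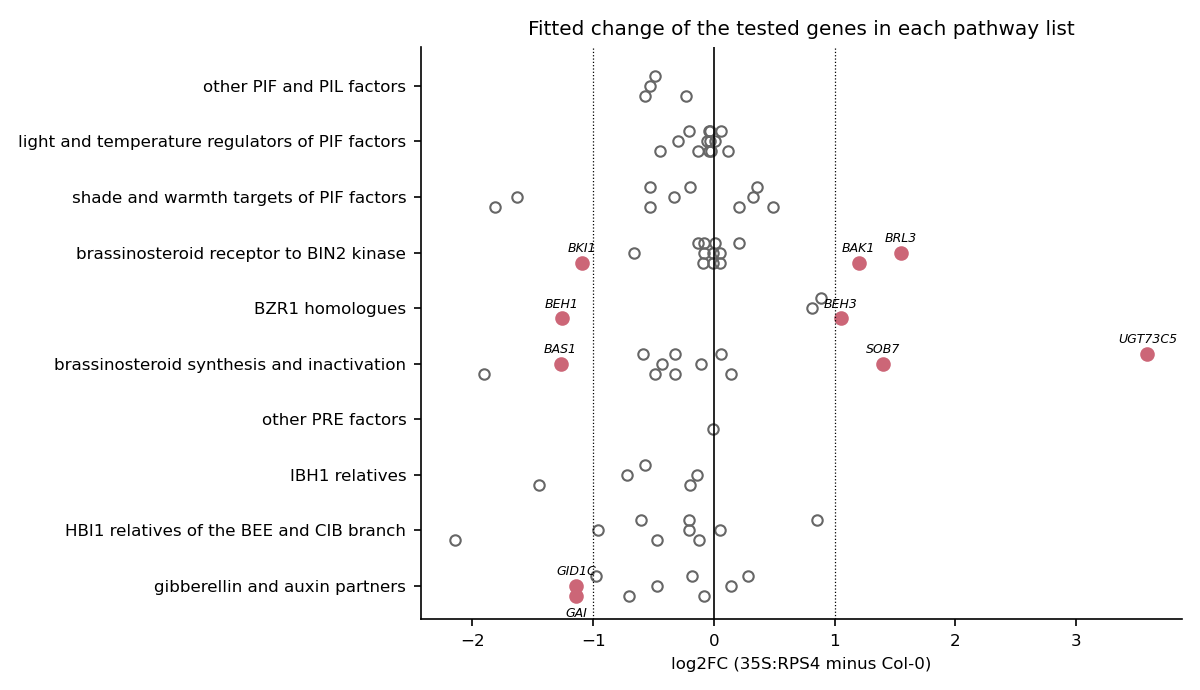
Fitted log2FC of each tested gene in the 10 lists around the growth factors, 35S:RPS4 minus Col-0, 1 point a gene, offset vertically for legibility. Filled red points are called genes, with their symbols, and dotted lines mark a log2FC of 1 in either direction. The calls lie in the brassinosteroid and gibberellin lists, from BAS1 at -1.27 to UGT73C5 at 3.59, and the light regulators stay between -0.45 and 0.12.

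For the 2 lowered genes, the tested genes with a mean of at least 5 CPM were searched for the most similar pattern of log2 CPM over the 6 libraries, given as a description since all share the split by genotype. For HBI1, among 13394 genes, these were AT4G37250 (Pearson r = 0.9997, log2FC -0.77, FDR 0.00317) and OFP13 (AT5G04820), at r = 0.9995, which went from 15.4 to 3.45 CPM (log2FC -2.16, FDR 0.000154). For PRE1, among 13395 genes, they were AT4G01593 (r = 0.9989, log2FC -0.62, FDR 0.0197) and the NAC factor gene NAC083 (AT5G13180; r = 0.9989), which fell from 39.6 to 17.0 CPM (log2FC -1.22, FDR 0.0086).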

How the data were processed

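Polyadenylated RNA of 6 leaf libraries, 3 of Col-0 and 3 of 35S:RPS4, was prepared with a TruSeq v2 kit and sequenced. The authors deposited raw read counts per gene, without normalization. Their processing notes name FastQC 0.11.2, TopHat2 2.0.10, HTSeq and the TAIR10 genome; settings are not given in the sources used here, so reads of overlapping or antisense genes cannot be told apart. Summary entries that are no gene held 6.45 to 8.30% of counts per library and were set aside. Locus identifiers of 31912 genes matched the RefSeq copy of TAIR10.1, whose nuclear chromosomes are those of TAIR10 and which supplied symbols, coordinates, exon lengths and upstream sequence.

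Genes were filtered with filterByExpr (minimum count 10) and tested two-sided with edgeR (version 4.0.16, run under R 4.3.3), using TMM factors and robust quasi-likelihood fits over all 6 libraries with genotype as the only term. The thresholds, an FDR below 0.01 and a log2FC above 1 in size, are those the study gives. The SE is the log2FC over the square root of F. Alternatives were DESeq2 1.42.0, limma 3.58.1 voom, other scaling factors, no filter, an FDR of 0.05 alone, each library left out, and the replicate number as a block. Exact permutation tests used scipy 1.17.1. Intervals and floors for low counts cover counting error only.

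The labels give both genotypes replicate numbers 1 to 3 without saying what they share. Deviations from the group means correlated at 0.56, 0.21 and 0.42 between libraries of the same number over 13395 genes. Between others they correlated at -0.49 to 0.28. The value of 0.21 is within the range of the others, so a pairing by number is not certain. The main fit and the ratio tests leave it out, and the replicate block takes it in. FDRs and ratio p-values given without the block therefore take no account of a pairing. Libraries of a group differed by a chi-square of 8.29 to 39.5 per gene, far more than a repeat of 1 library would.

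The 10 genes and the lists were chosen with earlier results of these data known. Named are the 10 genes, RPS4, from each list the called genes or else the one with the smallest FDR, and for each lowered gene the 2 most similar genes, besides those named after their values were seen or for their place in the pathway.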

Additional observations from a re-analysis of the deposited data

How the results depend on the processing

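No gene of the 10 was raised in any alternative. HBI1 and PRE1 were the genes lowered, and 4 were at an FDR below 0.05 without a fold threshold, 1 to 2 with single libraries left out, and 2 with the replicate block. Over all genes, 1188 were raised and 251 lowered. The FDR of 0.05 alone gave 1934 and 1150, single libraries left out 841 to 1374 and 99 to 337, and the block 1329 and 330. The lowered count was 105 and 99 without Col-0 replicates 2 and 3, and 108 and 128 without 35S:RPS4 replicates 2 and 3. Upper-quartile factors lowered 391 and library size alone 377. The median log2FC of all genes was -0.174 and -0.161 with these, beside 0.00548 in the main fit. With library size alone the groups of HFR1 and BZR1 also no longer overlapped. In the lists around the 10 genes, 5 were raised and 5 lowered. Raised were 3 with upper-quartile factors, library size alone or limma voom, and 2 to 6 with libraries left out. Lowered were 10 with DESeq2, 10 with the block, 19 at an FDR of 0.05 alone and 0 to 10 with libraries left out. BNQ2 turned from -0.01 to 0.00 with limma voom and with the block, and ran from -0.22 to 0.30 with single libraries left out (0.30 without Col-0 replicate 3, 0.19 without 35S:RPS4 replicate 1). The block ended no call and added those of PAR1, IAA29, BEE3, IBL1 and BR6OX2. The causes were not tested. Few reads for these genes left PRE5 untested and HFR1 and BNQ2 with wide errors.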

Other observations

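PIF4 and IBH1 lie 19919 bases apart on chromosome 2, with 4 genes between them. Of these, AT2G43030 (log2FC 0.05, FDR 0.746 by edgeR) and the pollen germination gene NPG1 (0.02, FDR 0.983) were tested and not called. PAO2 had no read in either genotype, and ATPMEPCRD had 8 counts in Col-0 and 10 in 35S:RPS4. The lower values of IBH1 (-0.80) and PIF4 (-0.33) thus had no counterpart of that size in AT2G43030 (SE 0.07). The SE of 0.33 for NPG1 leaves room for a fall of the size of PIF4.

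Replicate 1 of 35S:RPS4 was the transgenic library nearest to the Col-0 mean for 7 of the 9 tested growth factor genes and for both lowered ones, beside 154 of the 251 lowered genes (61.4%) and 46.6% of all tested genes.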
